A study of Mus musculus with 6 samples.

Results

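Peritoneal macrophages from miR-221/222 knockout (KO) mice were compared between untreated cells and cells that had been tolerized with lipopolysaccharide (LPS) and then stimulated with it again. The comparison rests on 2 of the 6 libraries of the series, KO Tolerized+LPS and KO Naïve, chosen by their titles, with 1 library each. Across these libraries, 10226 genes of 23699 rows were compared, namely those with an estimate in both, a symbol listed once and at least 2 FPKM in either. FPKM counts fragments per length of transcript, scaled to the number of mapped fragments.

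The series measured poly-A mRNA of peritoneal macrophages on a C57Bl/6 background by RNA-seq, in wild-type (WT) cells and in cells of the genotype miR-221/222 -/Y. Tolerized cells of either genotype met 10 ng/ml LPS over 15 h, were washed and rested over 2 h, and then met 1000 ng/ml LPS over 4 h, while naive cells received none. Another state of each genotype, called LPS here, met the 1000 ng/ml dose over 4 h without the earlier exposure. The series' text describes triplicates, but each group is 1 library, and whether animals were pooled, their age and how the allele was made are not stated in the labels. A KO library therefore differs from its WT counterpart in genotype and in everything else that separates 2 single libraries, and these cannot be told apart.

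LPS comes from the outer membrane of Gram-negative bacteria and signals through Toll-like receptor 4 and its adaptors MyD88 and TRIF to NF-kappaB, AP-1 and interferon regulatory factors. Macrophages that have met LPS before respond to it again with less of some products, such as Tnf, and with as much or more of others, such as antimicrobial proteins, a state known as endotoxin tolerance. The microRNAs miR-221 and miR-222 are neighbours on the X chromosome and share a seed, the stretch that pairs with target mRNAs. The series names miR-222 in its title as a regulator of tolerance.

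The mature microRNAs that the knockout removes are shown with their seed, bases 2 to 8, in capitals, from RefSeq (GRCm38.p6, X chromosome, minus strand, 19146307 to 19146329 and 19146901 to 19146923). Both carry the same seed and differ after it.
mmu-miR-221-3p: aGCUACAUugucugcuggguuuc
mmu-miR-222-3p: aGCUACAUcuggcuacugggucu

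The rows of Mir221 (mm9, chromosome X, 18723420 to 18723514) and Mir222 (18724019 to 18724097) were listed at 0 FPKM in all 6 libraries, WT included. Mature microRNAs carry no poly-A tail and escape such libraries, so these rows check nothing about the genotype labels. Smarca4, which encodes the SWI/SNF ATPase Brg1 and has been described as a target of miR-222, stood at 18.2 FPKM in KO naive, 18.4 in KO LPS and 20.5 in KO tolerized cells.

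The widths of the deposited intervals implied about 17700000 fragments in KO naive and 25200000 in KO tolerized cells, the lowest and the highest of the 6 libraries. Deposited bounds lay a median of 16.1% and 13.7% from the value at 2 to 5 FPKM and of 5.97% and 5.03% from 10 FPKM upward, and cover counting error only. KO naive cells stood apart from WT naive cells in inflammatory genes: 21 of 23 measured inflammatory cytokines, 18 of 21 chemokines and 16 of 17 acute phase and antimicrobial genes were higher in the KO naive library, with medians of 0.92, 1.94 and 2.52 on the log2 scale. Over all genes, 4689 of 10033 were higher in KO naive, with a median of -0.03. The complement receptor Vsig4, a marker of resident macrophages, was at 1.87 FPKM in KO naive and 158 FPKM in WT naive cells. Other markers of these macrophages differed in both directions. Gata6 and F5 were also lower in KO naive cells, and Icam2 was nearly level. Timd4, F10 and Prg4 were higher, at 108, 372 and 172 FPKM in KO naive and 35.6, 80.6 and 106 FPKM in WT naive cells. These baseline levels enter each difference given here, and the WT naive library in place of the KO naive one moved 137 of the named differences beyond their deposited range. For gene lists, counts against the WT naive library are given where they differ by more than 1.5 times.

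In tolerized and restimulated KO macrophages, most measured cytokine, chemokine and interferon-stimulated transcripts were at least 2-fold above their levels in naive KO cells, and some transcripts of resident macrophage functions, among them lysosomal, scavenger and eicosanoid genes, were below them. Of 10226 genes, 648 (6.34%) were at least 2-fold higher on the log2(FPKM + 1) scale and 1350 (13.2%) at least 2-fold lower. At 4-fold or more the balance was the other way, with 256 genes higher and 187 lower, and at 16-fold or more 39 were higher and 4 lower. The median over all genes was -0.22, with quartiles at -0.67 and 0.17. Scaling both libraries to equal median ratios moved that median to -0.05 and the counts to 802 higher and 957 lower. The deposited intervals of the 2 libraries were apart for 647 of the 648 and 1346 of the 1350 genes. With the WT naive library in place of the KO naive one, 907 genes were higher and 1767 lower. With 1 library per group there is no test of the KO comparison. In bulk RNA, fewer cells of a type and less RNA per cell cannot be told apart.

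**Figure D1:**
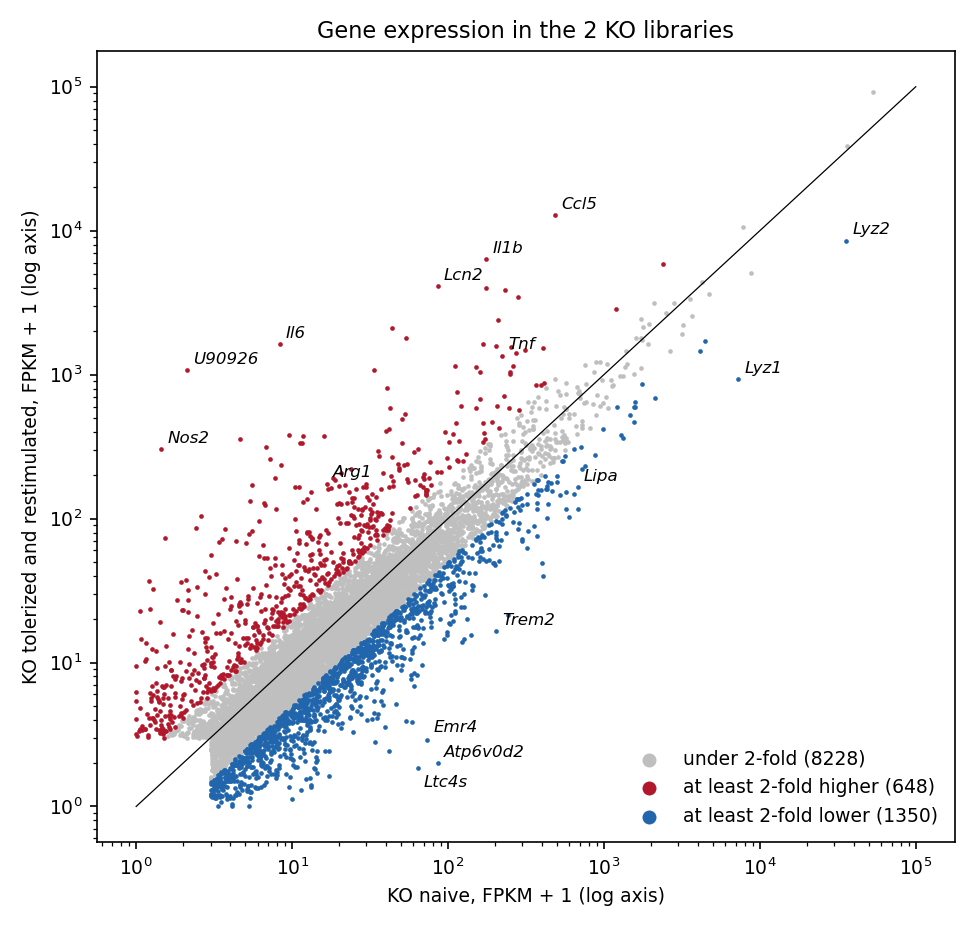
Each point is 1 of 10226 genes, with FPKM + 1 in KO naive cells on the x axis and in KO tolerized and restimulated cells on the y axis, both logarithmic; red and blue points differ by at least 2-fold on the log2(FPKM + 1) scale. The 648 higher genes reach farther from the diagonal than the 1350 lower ones, with U90926, Nos2 and Il6 at the upper left.

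The only test that the design allows sets both tolerized against both naive libraries in an additive limma fit over genotype and condition, with 2 residual degrees of freedom and Benjamini-Hochberg adjustment over 10138 genes. It tests the mean of the genotypes, not KO cells alone, and its p-values measure only the spread between these libraries, which may be technical. In it, 752 genes (7.42%) rose and 2002 (19.7%) fell. Of the 629 genes at least 2-fold higher in KO cells that were in the fit, 530 passed its threshold, and of 1314 lower genes 1128 did. The same KO libraries are part of the fit, so these counts are partly fixed by how the genes were chosen. Below, rose and fell are kept for genes past this threshold, and higher and lower describe the KO libraries. List counts below stand beside 6.34% of all genes higher and 13.2% lower than KO naive cells, and 7.42% rising and 19.7% falling.

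The largest increase in KO cells was that of U90926 (chromosome 5, 92638921 to 92644434, mm9), which RefSeq lists as a long noncoding RNA. It had 1.11 FPKM in KO naive, 219 in KO LPS and 1075 in KO tolerized cells, a log2 difference of 8.99 from naive to tolerized with a range of 8.44 to 9.83 from the deposited intervals. It was highest in the tolerized library, above the single LPS dose, and rose in the limma fit over both genotypes (9.10 ± 0.24, SE, adjusted p = 0.000139, 2 libraries per condition). Nos2 (chromosome 11, 78734361 to 78773626), the inducible nitric oxide synthase, went from 0.453 FPKM in KO naive to 225 in KO LPS and 304 in KO tolerized cells, a difference of 7.72 (7.54 to 7.91). WT tolerized cells had 23.3 FPKM of it, so that the WT difference was 4.50; the limma fit gave a rise of 6.11 ± 0.72 (adjusted p = 0.00411).

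Il6 (chromosome 5, 30339701 to 30346508), a pyrogenic cytokine, had 7.32 FPKM in KO naive, 5013 in KO LPS and 1624 in KO tolerized cells. The tolerized level was below that of the single dose and 7.61 (7.37 to 7.89) above naive on the log2 scale. Ch25h, which makes 25-hydroxycholesterol, had 3.66, 630.1 and 356 FPKM in the same order. Ptgs2, the inducible cyclooxygenase, had 42.7, 3032 and 2122 FPKM. These genes were lower after tolerization than after the single dose, yet 6.26 and 5.60 above naive.

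Lcn2 (chromosome 2, 32240157 to 32243259), which encodes the iron-siderophore binding protein lipocalin-2, followed another order. Its level was 84.7 FPKM in KO naive, 146 in KO LPS and 4112 in KO tolerized cells, so that the tolerized library alone was far above the others of the KO genotype. Against KO naive cells the difference was 5.58, and against WT naive cells, at 2.37 FPKM, it was 10.25. Ccl7 and Ccl12, both monocyte-attracting chemokines on chromosome 11, also had their highest KO level in tolerized cells. Ccl7 had 8.58, 336 and 377 FPKM in KO naive, LPS and tolerized cells, and Ccl12 had 0.532, 20.6 and 72.6 FPKM. Cxcl10, an interferon-induced chemokine, had 5.79, 5246 and 312 FPKM, far below the single-dose level in tolerized cells.

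Gm14446, which RefSeq names Ifit1bl1, had 1.60, 78.1 and 103 FPKM in KO naive, LPS and tolerized cells, and 3.59 FPKM in WT tolerized cells. It belongs to the Ifit family of similar genes, so reads may be split among its copies and its level is uncertain. Ccl12 and Gm14446 rose in the limma fit (adjusted p = 0.0271 and 0.0421). Both lost the call when the KO naive library was left out (0.116 and 0.173), and Gm14446 also without WT LPS (0.0622) or KO LPS (0.0630).

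The largest decrease was that of Atp6v0d2 (chromosome 4, 19803985 to 19849713), a subunit of the vacuolar proton pump. It had 84.9 FPKM in KO naive, 13.9 in KO LPS and 0.993 in KO tolerized cells, a difference of -5.43 (-5.68 to -5.20), and fell in the limma fit (-5.52 ± 0.26, adjusted p = 0.00156). Ltc4s (chromosome 11, 50049974 to 50051973), the leukotriene C4 synthase, had 63.0, 9.64 and 0.854 FPKM. For both genes the KO tolerized level was the lowest of the KO genotype and the single LPS dose lay between. Emr4, now Adgre4, an adhesion receptor of macrophages, had 72.2, 41.2 and 1.89 FPKM in KO cells but 18.6 FPKM in WT naive and 9.09 in WT tolerized cells. Its KO difference of -4.66 stood beside -0.96 in WT, and it did not pass the limma fit (adjusted p = 0.0765).

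The other large decreases were of mixed function. Trem2, a lipid-sensing receptor of macrophages, had 202 FPKM in KO naive, 50.6 in KO LPS and 15.5 in KO tolerized cells. Sgk1, a glucocorticoid-induced kinase, had 242, 133 and 20.4 FPKM. Sort1, the sorting receptor sortilin, had 58.0, 11.9 and 2.88 FPKM. Hebp1 (a heme-binding protein), Chchd10 (a mitochondrial protein) and 2400009B08Rik (Fcor in RefSeq) had KO differences of -3.61, -3.47 and -4.12. Of the 10 largest decreases, 9 fell in the limma fit, the exception being Emr4. They were chosen by the KO libraries, which are part of the fit, so this count is partly fixed by the choice.

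**Figure D2:**
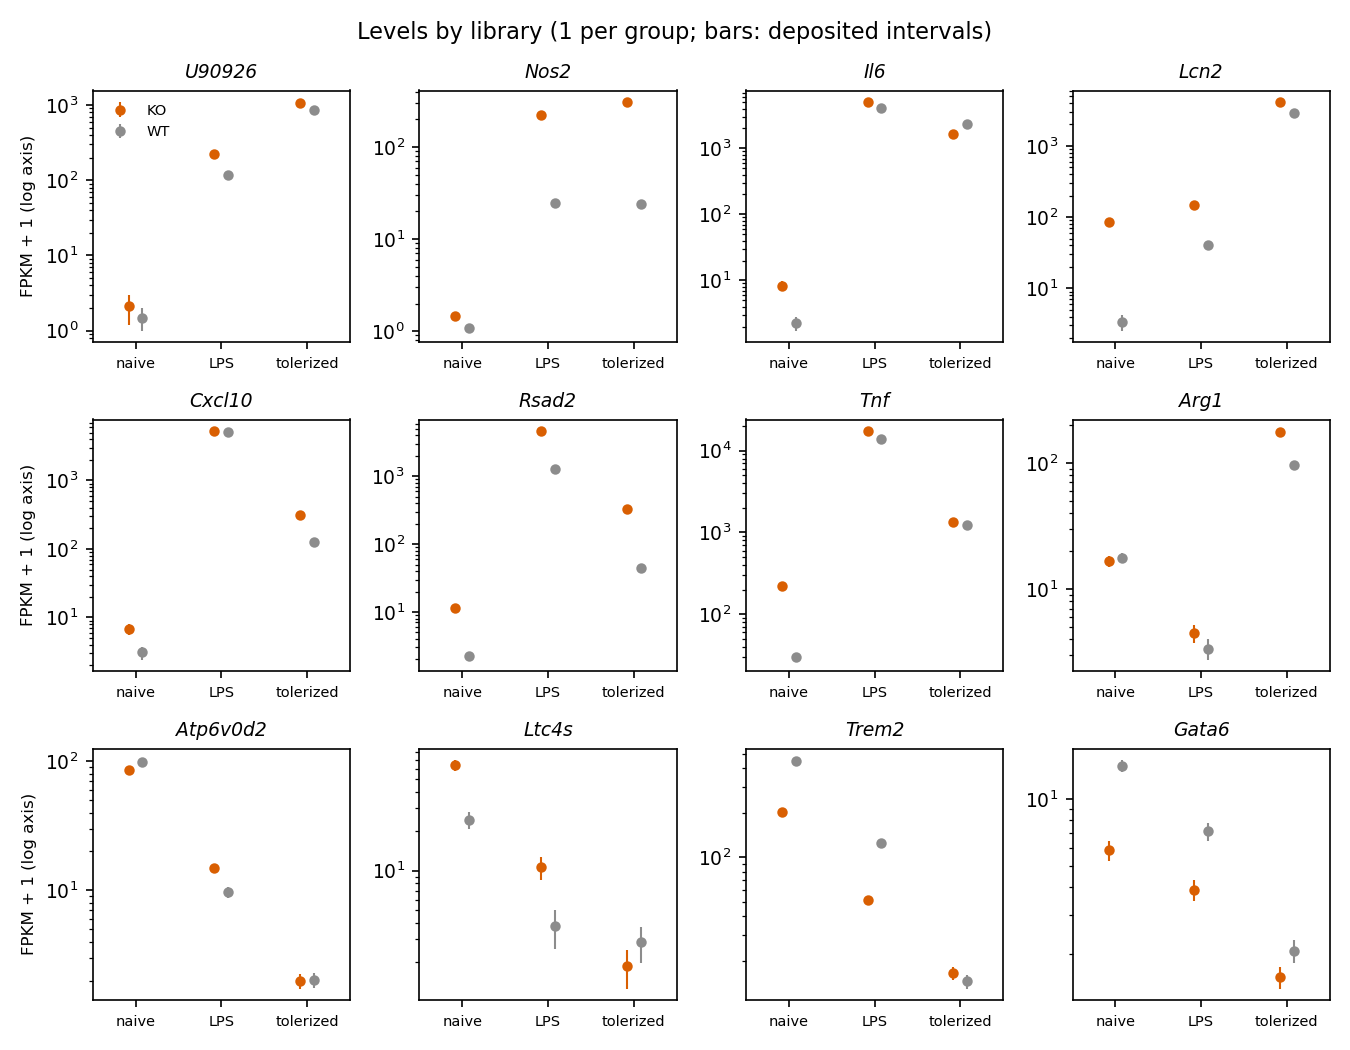
Levels of 12 genes as FPKM + 1 on a logarithmic axis that differs between panels, in naive, LPS and tolerized libraries of KO (orange) and WT (grey) cells; bars are the deposited intervals, and there is 1 library per group. Lcn2 and Arg1 are highest in the tolerized libraries, Cxcl10, Rsad2 and Tnf in the LPS libraries, and Atp6v0d2 and Gata6 lowest in the tolerized ones.

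Most inflammatory cytokines were higher. Of 23 measured genes of 25 listed, 21 were at least 2-fold higher and none lower (6.34% and 13.2% of all genes), with a median difference of 3.20, and 20 of 23 rose in the limma fit. Il1b had 175 FPKM in KO naive, 9595 in KO LPS and 6326 in KO tolerized cells. Il12a, a subunit of interleukin-12, had 1.40, 129.6 and 85.6 FPKM. The neutrophil growth factor Csf3 had 10.8, 136 and 374 FPKM, its highest KO level being in tolerized cells.

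Tnf, the cytokine by which tolerance is usually measured, had 219.9 FPKM in KO naive, 17407 in KO LPS and 1352 in KO tolerized cells. It was 2.62 (2.56 to 2.67) above KO naive on the log2 scale and 5.51 above WT naive cells, which had 28.7 FPKM, and rose in the limma fit (4.00 ± 0.71, adjusted p = 0.0113). Il12b, the other subunit of interleukin-12, had 0.722, 81.4 and 14.8 FPKM. Both were between the naive and the single-dose level. Cytokines outside the 2-fold count were Csf1 (-0.35), the macrophage growth factor, and Il18 (0.90).

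Chemokines differed in both directions. Of 23 measured genes, 14 were higher and 5 lower (16 and 3 against the WT naive library), with a median of 3.30, and 13 rose and 2 fell in the limma fit. Cxcl1, a neutrophil attractant, had 52.8 FPKM in KO naive, 4254 in KO LPS and 1786 in KO tolerized cells. The 5 lower members, named with their values known, were Ccl6 (-3.36), Cxcl14 (-2.37), Ppbp (-1.84), Cxcl13 (-1.43) and Ccl9 (-1.09). Of these, Ccl9 and Ppbp were not lower in WT cells, with differences of 1.55 and 0.54.

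Nearly all interferon-stimulated genes were higher. Of 44 measured genes, 42 were higher and none lower, with a median of 2.57, and 42 rose in the limma fit. Oasl1, a translation inhibitor of the oligoadenylate synthetase family, had 6.21 FPKM in KO naive, 942 in KO LPS and 259.8 in KO tolerized cells. The antiviral enzyme Rsad2 had 10.6, 4650.2 and 332 FPKM, and the exonuclease Isg20 had 4.52, 224 and 169 FPKM. Tolerized levels of these genes were thus above naive and below the single dose. The transcription factor Stat2 had 12.6, 106 and 44.7 FPKM (1.74), and its partner Irf9 had 22.9, 62.2 and 47.8 FPKM (1.03). Irf9 rose in the limma fit (adjusted p = 0.0209) but not without WT naive (0.0707), WT tolerized (0.0951), KO naive (0.0588) or KO tolerized cells (0.185).

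Of 12 interferon-inducible GTPases, which attack the vacuoles of intracellular pathogens, 11 were higher and none lower, and 11 rose in the limma fit. Iigp1 had 1.78, 323 and 28.8 FPKM in KO naive, LPS and tolerized cells, and Gbp5 had 17.7, 1181 and 183 FPKM. Both kept more than the naive level. Reads of the Gbp, Ifit and Oas families may be split among similar copies.

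The promoters of Il6, Cxcl10 and Rsad2 are shown because these genes were among the largest increases of their groups and carry matches to motifs of the factors that LPS engages. The motifs searched on both strands were GGG and TTCC with any 3 bases between (NF-kappaB-like), GAAA repeated with any 2 bases between (interferon-response-like) and TGANTCA (AP-1-like), and matches are in capitals. Of 32851 RefSeq promoters of this length, 4.65%, 2.98% and 6.75% held them. Each sequence covers the 250 bases before the start site in the direction of the gene, from RefSeq (GRCm38.p6), at chr5:30012864-30013113 on the plus strand for Il6, chr5:92348890-92349139 on the minus strand for Cxcl10 and chr12:26456453-26456702 on the minus strand for Rsad2.
Il6: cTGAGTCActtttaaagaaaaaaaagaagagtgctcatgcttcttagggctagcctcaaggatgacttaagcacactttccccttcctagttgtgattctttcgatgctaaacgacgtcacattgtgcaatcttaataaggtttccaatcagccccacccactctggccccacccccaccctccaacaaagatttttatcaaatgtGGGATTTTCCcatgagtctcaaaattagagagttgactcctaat
Cxcl10: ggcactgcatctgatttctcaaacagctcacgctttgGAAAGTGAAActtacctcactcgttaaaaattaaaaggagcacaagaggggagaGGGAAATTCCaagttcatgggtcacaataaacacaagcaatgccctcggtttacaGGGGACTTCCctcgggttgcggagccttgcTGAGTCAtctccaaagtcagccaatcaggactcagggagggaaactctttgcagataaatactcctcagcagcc
Rsad2: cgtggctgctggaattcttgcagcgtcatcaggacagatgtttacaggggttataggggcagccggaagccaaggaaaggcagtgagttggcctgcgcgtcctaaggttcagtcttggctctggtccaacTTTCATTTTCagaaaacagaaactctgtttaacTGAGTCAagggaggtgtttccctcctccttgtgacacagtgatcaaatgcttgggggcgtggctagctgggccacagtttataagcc

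The Il6 promoter held 1 NF-kappaB-like match, starting 44 bases before the start site, and 1 AP-1-like match. That of Cxcl10 held 2 NF-kappaB-like matches, at -159 and -104, 1 interferon-response-like match at -213 and 1 AP-1-like match at -74. Rsad2 held an interferon-response-like match at -120, read on the other strand, and an AP-1-like match at -87. A match describes letters, not a bound site.

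Of 28 NF-kappaB and AP-1 factors, which carry the LPS signal to genes, 7 were higher and 2 lower in KO cells, 11 and 2 against the WT naive library, with a median of 0.38, and 9 rose and 2 fell in the limma fit. Nfkbiz, an atypical inhibitor of kappaB that helps to induce secondary response genes, had 13.3 FPKM in KO naive, 269 in KO LPS and 116 in KO tolerized cells. The AP-1 subunit Fosl1 had 1.28, 6.82 and 15.9 FPKM, and Batf had 25.3, 63.5 and 116 FPKM. Egr2, an early growth response factor, had 97.2, 6.63 and 15.3 FPKM (-2.59).

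Among 25 Toll-like receptors and adaptors, 5 were higher and 2 lower, beside 6.34% and 13.2% of all genes, and 4 and 4 against the WT naive library. In the limma fit 2 rose and 3 fell, beside 7.42% and 19.7% of all genes, with 4 rising and 1 falling after rescaling. Tlr2, a receptor for bacterial lipoproteins, had 434 FPKM in KO naive, 473 in KO LPS and 125 in KO tolerized cells. Tlr8 had 34.5, 17.5 and 7.90 FPKM, and Tlr1, which pairs with Tlr2, had 30.6, 55.7 and 100.1 FPKM. The LPS receptor Tlr4 itself differed by -0.45 and its adaptor Myd88 by 0.51. Both were named after their values were seen.

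Negative regulators of Toll-like receptor signalling were higher in 13 of 23 genes and lower in none, with a median of 1.22, and 11 rose and 1 fell in the limma fit. Against the WT naive library 1 was lower. The cytokine signalling inhibitor Socs3 had 34.5, 327 and 296 FPKM in KO naive, LPS and tolerized cells. Socs1 had 9.53, 142 and 81.3 FPKM. The phosphatase gene Dusp16 had 6.26, 37.9 and 44.6 FPKM, and the RNase gene Zc3h12a had 23.1, 166 and 138 FPKM. Of these 4, Dusp16 was higher in tolerized cells than after the single dose. Irak3, the kinase-dead relative of the Irak kinases that is often cited in tolerance, differed by 1.22 and was named after its value was seen.

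Acute phase and antimicrobial genes were higher in 10 of 19 measured members and lower in 2, with a median of 1.04 and 8 rising in the limma fit, 13 without KO naive and 14 without KO tolerized cells. Against the WT naive library all 19 were higher. Saa1, serum amyloid A1, had 1.74 FPKM in KO naive, 0.813 in KO LPS and 42.4 in KO tolerized cells; reads of the Saa genes may be shared among copies. Irg1, which makes itaconate, had 274, 3049.8 and 1418 FPKM, and the formyl peptide receptor Fpr1 had 250.3, 799 and 1011 FPKM. Hp (haptoglobin, 1468 and 523 FPKM in KO naive and tolerized cells) and Orm1 were lower, and both were higher in WT, by 0.93 and 0.71.

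Arg1, arginase 1, had 15.7 FPKM in KO naive, 3.47 in KO LPS and 174 in KO tolerized cells, a difference of 3.39 (3.21 to 3.58), and rose in the limma fit (2.92 ± 0.27, adjusted p = 0.00245). The arginine transporter Slc7a2 had 159, 973 and 1049.8 FPKM. Of 12 genes of arginine and nitric oxide metabolism, 4 were higher and 1 lower, the lower one being Arg2 (-1.45), with a median of 0.35. Against the WT naive library 7 were higher and 2 lower. Nos2 and Arg1, which compete for arginine, both had their highest KO level in tolerized cells.

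Eicosanoid genes moved in both directions. Of 17 measured genes, 8 were lower and 3 higher, with a median of -0.70, and 9 fell and 2 rose in the limma fit. After rescaling 5 were lower and 3 higher in KO cells. Without the WT tolerized library 5 fell. Besides Ltc4s, the constitutive cyclooxygenase Ptgs1 had 19.7, 2.49 and 2.53 FPKM and the lipoxygenase Alox15 had 48.9, 25.9 and 7.82 FPKM in KO naive, LPS and tolerized cells. The 3 higher genes were Ptgs2, the phospholipase Pla2g4a (1.16) and the prostaglandin E synthase Ptges (1.01).

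Genes of glycolysis and hypoxia were higher in 8 of 22 measured members and lower in none, with a median of 0.70, and 14 were higher against the WT naive library. Pfkfb3, an activator of glycolysis, had 21.4 FPKM in KO naive, 26.9 in KO LPS and 128 in KO tolerized cells. Egln3, an oxygen-sensing prolyl hydroxylase, had 4.24, 1.33 and 26.7 FPKM. Ankrd37 had 6.12, 0.859 and 28.1 FPKM, and the mitophagy receptor Bnip3 had 13.9, 3.31 and 59.5 FPKM. For these 4 genes the KO tolerized library was the highest of the 6. WT differences were 1.13, 0.23, 0.34 and 0.32, and of the 4 genes Pfkfb3 rose in the limma fit (adjusted p = 0.0144), though not without the KO naive library (0.0533).

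Most respiratory chain genes were lower by less than 2-fold. Of 40 measured genes 39 were below 0, 15 were at least 2-fold lower and none higher, with a median of -0.91 against -0.22 over all genes. After rescaling 4 were 2-fold lower, beside 957 of 10226 over all genes, and against the WT naive library 3 were lower and 1 higher. Sdhb, of succinate dehydrogenase, had 164 FPKM in KO naive, 53.1 in KO LPS and 58.7 in KO tolerized cells, and the complex I gene Ndufs7 had 80.6, 24.9 and 31.2 FPKM. For both genes the KO LPS level was lower still. In WT cells 36 of the 40 were below 0 but the median was -0.32, with 1 gene 2-fold lower and 1 higher. KO naive cells were above WT naive cells in 40 of the 40 genes (median 0.37) and KO tolerized above WT tolerized cells in 4 (median -0.17). In the limma fit 5 fell and 1 rose, with 0 to 10 falling when a library was left out, 0 without KO tolerized and 10 without WT naive cells.

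Among 16 tricarboxylic acid cycle enzymes 4 were lower and none higher, with a median of -0.83 against -0.22 over all genes. After rescaling 1 was lower, beside 957 of 10226 over all genes. The WT median was -0.15. KO naive cells were above WT naive cells in 13 of the 16, and KO tolerized above WT tolerized cells in 0. Idh2, the mitochondrial NADP isocitrate dehydrogenase, had 33.4, 8.62 and 6.198 FPKM in KO naive, LPS and tolerized cells and fell in the limma fit (adjusted p = 0.00765). Mdh2 had 267, 136 and 129 FPKM (-1.05), but 119.8 in WT naive cells, against which the KO tolerized library differed by 0.10. Of 47 cytosolic ribosomal protein genes 1 was 2-fold lower and none higher, with a median of -0.63, and 14 were lower against the WT naive library.

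Of 22 cholesterol synthesis and uptake genes 7 were lower and none higher (median -0.74), led by Dhcr7, the last enzyme of the pathway, at 17.0, 1.07 and 2.87 FPKM in KO naive, LPS and tolerized cells. In the limma fit 4 of 21 of them fell, beside 19.7% of all genes, with 1 falling after rescaling or without KO naive or WT tolerized cells and 2 without KO tolerized cells. Of 23 liver X receptor targets and apolipoproteins 7 were lower and 1 higher, the latter being Apoc1 (1.02), with a median of -0.87. Against the WT naive library 15 were lower. The lysosomal acid lipase Lipa had 677, 255 and 165 FPKM, and lipoprotein lipase, Lpl, had 639.8, 271 and 146 FPKM. Apoe, at 3678 and 2562 FPKM in KO naive and tolerized cells, differed by -0.52, beside -2.03 in WT. In the limma fit 12 of 23 genes of the second list fell, 7 without either the WT naive or the WT tolerized library.

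Lysosomal genes were lower in 13 of 35 measured members and higher in none, beside 13.2% and 6.34% of all genes, with a median of -0.88. After rescaling 8 were lower. The hydrolases Hexa (370.3 and 115 FPKM in KO naive and tolerized cells) and Gusb (192 and 64.6 FPKM) differed by -1.68 and -1.56. The membrane protein Cd63 (157 and 49.996 FPKM) differed by -1.63. In the limma fit 16 of 35 fell, with 5 falling without WT tolerized and 8 without WT naive cells.

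Efferocytosis and scavenger receptors, with which macrophages clear dead cells and lipoproteins, were lower in 14 of 25 and higher in 2, with a median of -1.22, and 13 were lower after rescaling. Beside Trem2, the scavenger receptor Colec12 had 30.9, 13.01 and 5.57 FPKM in KO naive, LPS and tolerized cells. The bridging molecules Gas6 and Pros1, which link dying cells to receptors of the Mertk family, had 5.34, 1.05 and 0.369 FPKM and 18.9, 9.34 and 3.92 FPKM. In each case the tolerized level was the lowest of the KO genotype. In the limma fit 12 of 24 fell, 7 without WT naive cells. Axl (1.06) and the integrin gene Itgav (1.21) were the 2 higher members.

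**Figure D3:**
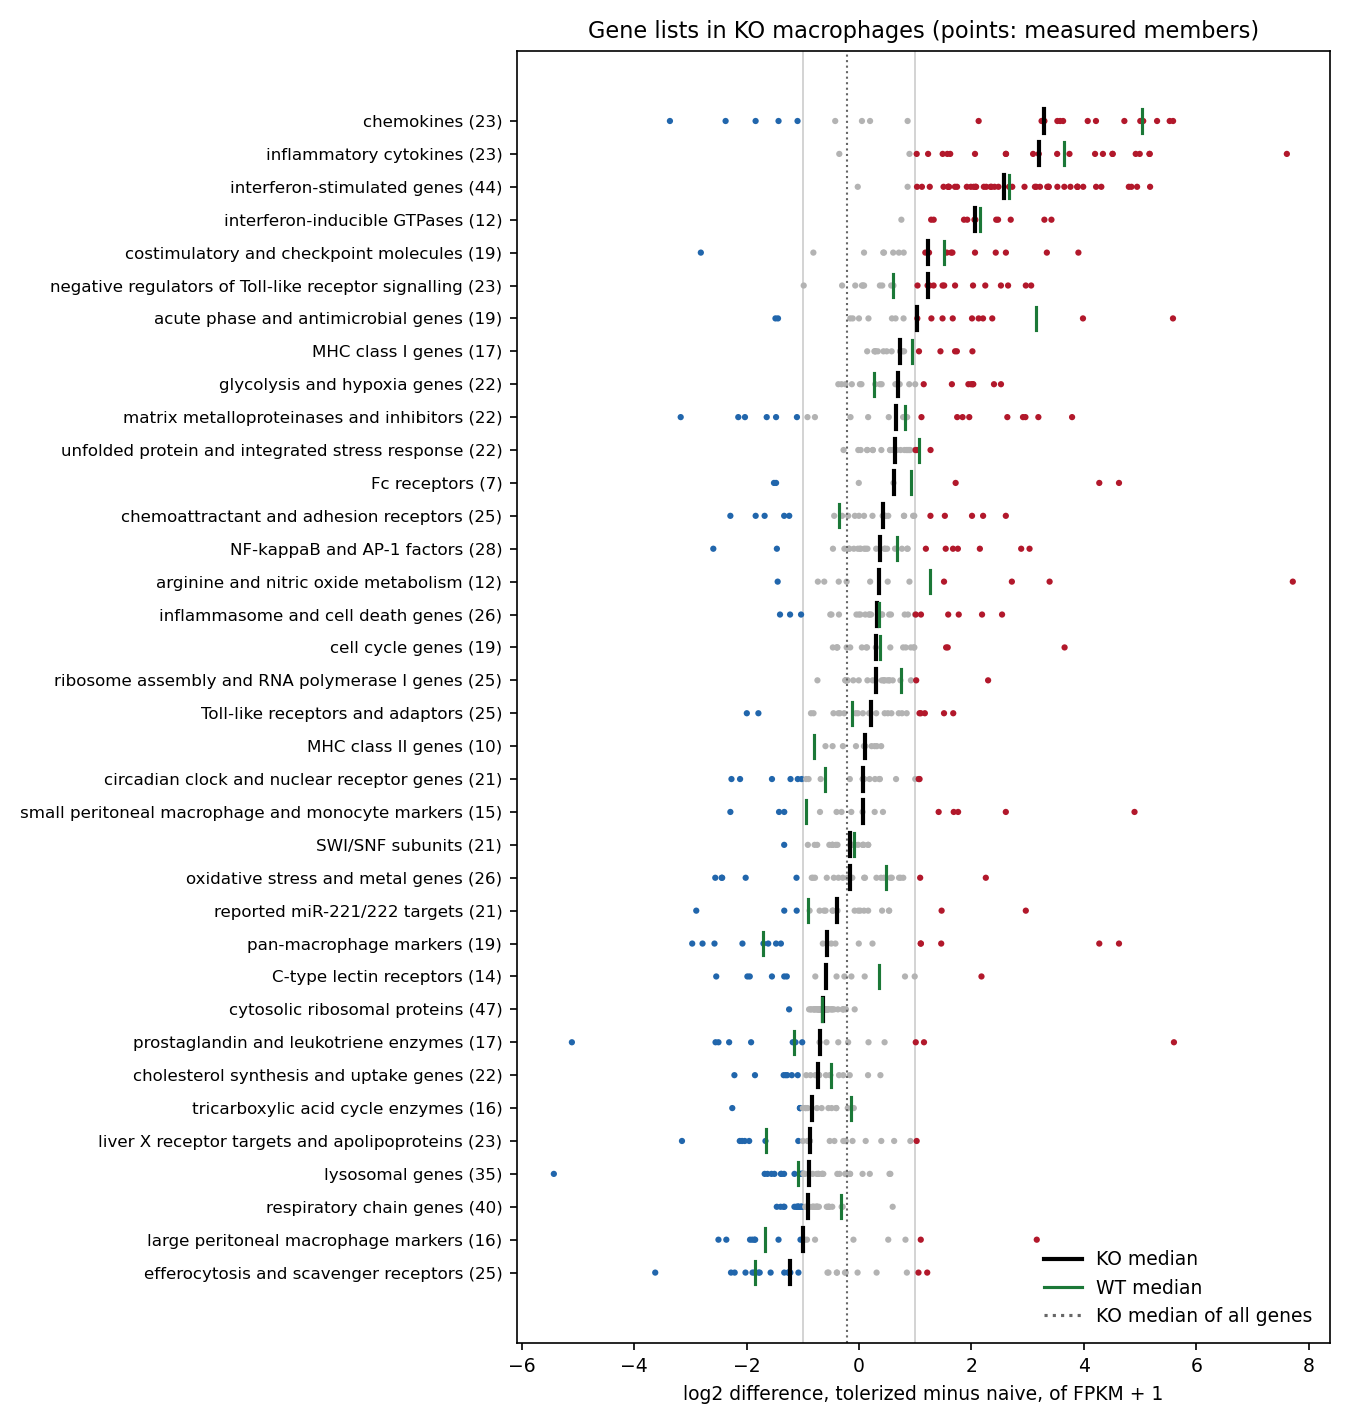
Points are measured members of the gene lists, placed by the log2 difference of FPKM + 1 between KO tolerized and KO naive cells (red, at least 2-fold higher, and blue, at least 2-fold lower). The B cell, T and NK cell, neutrophil, mast cell and eosinophil, mesothelial and fibroblast, and dendritic cell marker lists are left out. Black and green bars are the KO and WT medians and the dotted line is the KO median of all genes, -0.22. Chemokines, cytokines and interferon-stimulated genes have the highest medians (3.30, 3.20 and 2.57) and efferocytosis and scavenger receptors the lowest (-1.22).

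Markers of macrophage identity moved in both directions. The defining markers named for the labelled cell type were present in both KO libraries: Csf1r at 722 and 221 FPKM, Cd68 at 1560 and 594, Lyz2 at 35949 and 8538, Itgam at 352 and 415, Emr1 (F4/80) at 393 and 842 and Mertk at 34.2 and 22.8, in naive and tolerized cells. Of 19 pan-macrophage markers 8 were lower and 5 higher (9 and 3 against the WT naive library), and their summed level was 53290 FPKM in naive and 16805 in tolerized KO cells, most of it Lyz2. Fcgr1 and Fcgr4, activating receptors for IgG, were the largest increases, from 5.62 to 127 FPKM and from 4.35 to 131 FPKM. WT cells had 6.63 and 25.8 FPKM of Fcgr1 and 11.4 and 22.8 FPKM of Fcgr4 in the same states.

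Large peritoneal macrophages are the resident population that depends on the factor Gata6. Of 16 measured markers of these cells 8 were lower and 2 higher, with a median of -1.004, and of 17 in the limma fit 10 fell and 1 rose, with 6 falling without WT naive cells. Gata6 had 4.88 FPKM in KO naive, 2.88 in KO LPS and 0.576 in KO tolerized cells (-1.90) and fell in the limma fit (-2.33 ± 0.25, adjusted p = 0.00337). Fibronectin, Fn1, had 321, 216 and 61.7 FPKM, and Tgfb2 had 18.4, 12.6 and 4.05 FPKM. Selp, P-selectin, went the other way, from 0.337 to 10.97 FPKM. Among the other defining markers, Prg4 went from 172 to 306 FPKM and Icam2 from 22.6 to 32.9 FPKM between KO naive and tolerized cells. F5 was nearly level, at 3.39 and 3.10 FPKM. Timd4, F10 and Vsig4 were lower, from 108 to 29.1, from 372 to 216 and from 1.87 to 0.131 FPKM.

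Of 15 markers of small peritoneal macrophages and monocytes 5 were higher and 3 lower, beside 6.34% and 13.2% of all genes. Of 19 against the WT naive library 5 were higher and 9 lower. Ms4a4c had 10.2, 156 and 333 FPKM in KO naive, LPS and tolerized cells, and Itgax (CD11c) had 104, 63.8 and 20.5 FPKM. Ccr2 and Cx3cr1, which define monocyte-derived cells, were at 1.17 and 1.31 FPKM in KO naive and 1.10 and 0.738 FPKM in KO tolerized cells. Irf4 and Ly6c2, also named as defining markers, went the other way, from 11.7 to 42.1 FPKM and from 33.8 to 111 FPKM. The list's summed level was 1271 and 1772 FPKM in these libraries and 1119 to 2194 FPKM in the other 4.

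Markers of other cell types were present in both libraries. The 14 B cell markers summed to 739.8 FPKM in KO naive and 774 in KO tolerized cells, 16 T and NK cell markers to 65.1 and 72.8, and 12 mast cell and eosinophil markers to 136 and 203. The 14 neutrophil markers summed to 273 and 417 FPKM, of which S100a8, which macrophages also express, made 166 and 341, while Ngp was at 0 in all 6 libraries and Elane and Mpo stayed at or below 0.0808 and 0.147 FPKM. The 15 mesothelial and fibroblast markers summed to 12.8 and 32.6 FPKM, of which decorin, Dcn, made 4.20 and 28.1. The 10 dendritic cell markers summed to 31.9 and 75.8 FPKM, of which Ccr7 made 13.1 and 39.6 and Fscn1 8.67 and 30.7. Batf3, of the same list, was lower, from 4.81 to 1.44 FPKM, and Zbtb46 was nearly level, at 2.65 and 2.55 FPKM. The part of these other cell types in the differences was not tested.

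Antigen presentation differed by class. No gene of 10 for MHC class II was 2-fold higher or lower in KO cells (median 0.10), H2-DMa being the largest, with 85.7, 26.8 and 56.3 FPKM in naive, LPS and tolerized cells (-0.60). Against the WT naive library 1 was lower (median -0.65). KO naive cells were above WT naive cells in 1 of the 10 genes (median -0.45), and the WT contrast had a median of -0.80. B cells also express these genes. Of 17 MHC class I genes 5 were higher and none lower, beside 6.34% and 13.2% of all genes, with 14 higher against the WT naive library. The peptide transporter Tap1 led them, at 27.2, 187 and 113 FPKM in KO naive, LPS and tolerized cells. Of 19 costimulatory and checkpoint molecules 11 were higher and 1 lower, with a median of 1.23, and 12 and 3 against the WT naive library. Slamf1 had 0.830, 8.55 and 26.3 FPKM, and Cd40 had 19.5, 499 and 206 FPKM, while Cd200r1, an inhibitory receptor, had 56.6, 9.43 and 7.18 FPKM.

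Matrix enzymes and their inhibitors were higher in 9 of 22 and lower in 6, beside 6.34% and 13.2% of all genes. The collagenase Mmp13 had 41.3, 127 and 584 FPKM in KO naive, LPS and tolerized cells. Serpinb2, a serine protease inhibitor, had 203, 606 and 1585 FPKM. Timp2, which inhibits metalloproteinases, had 139.7, 31.3 and 14.6 FPKM.

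Of 26 inflammasome and cell death genes 6 were higher and 3 lower, beside 6.34% and 13.2% of all genes. Nlrp3, the inflammasome sensor, had 27.4, 458 and 164 FPKM in KO naive, LPS and tolerized cells, and Mlkl, the effector of necroptosis, had 19.3, 143 and 91.6 FPKM. Casp4, the caspase that senses cytosolic LPS, had 25.9, 124 and 91.1 FPKM. The adaptor Pycard (60.0 and 22.0 FPKM in naive and tolerized cells) was lower by -1.41, also named with its values known. Nlrp3 and Pycard, which bind each other in the inflammasome, thus lay on opposite sides of naive.

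Genes described as targets of miR-221/222 showed no common direction. Of 21 measured, 2 were higher and 3 lower in KO cells, with a median of -0.38, and 3 and 7 against the WT naive library. Over all genes 6.34% were higher and 13.2% lower than KO naive, with a median of -0.22. In the limma fit 7.42% of all genes rose and 19.7% fell. The DNA repair gene Mgmt had 12.8 FPKM in KO naive, 3.92 in KO LPS and 0.858 in KO tolerized cells, and the pro-apoptotic gene Bmf had 6.55, 0.155 and 2.00 FPKM; Trps1 (-1.11) was the other lower one. Socs1, given above, and Tnfsf10, at 0.434, 19.4 and 2.97 FPKM, were higher. Cdkn1b, the cell cycle inhibitor p27 and a well-known target, differed by -0.47. In WT cells 8 of 20 were lower, with a median of -0.90. In the limma fit 8 of 21 fell and 1 rose, with 2 falling without WT naive and 3 without WT tolerized cells. Of 21 SWI/SNF subunits 1 was lower, Smarca2 (14.9, 1.70 and 5.32 FPKM, -1.33), and none higher. Against the WT naive library 3 were lower. Smarca4 differed by 0.16 (0.05 to 0.27) and did not pass the limma fit (0.19 ± 0.23, adjusted p = 0.573).

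The same contrast in WT cells shares no library with the KO pair. There, 828 of 10365 genes (7.99%) were higher and 1735 (16.7%) lower, with a median of -0.24. Of 10033 genes compared in both pairs, 456 were higher in both, which is 74.5% of the 612 KO genes and 56.7% of the 804 WT genes. Lower in both were 896, or 68.5% of 1308 and 56.4% of 1590. In opposite directions, 5 were higher in KO and lower in WT cells, and 12 the reverse. By at least 2 on the log2 scale, 126 genes had the larger value in WT and 81 in KO cells. The difference between the contrasts could not be tested, since 4 single libraries leave no residual degrees of freedom.

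Since the KO naive and WT naive levels enter the difference of the contrasts, their order in these genes is partly fixed by how the genes were chosen. Of the 126, 125 were higher in KO naive than in WT naive cells (median 2.42), and the tolerized libraries differed by a median of -0.28. Over all genes these medians were -0.03 and -0.02, with 4689 of 10033 higher in KO naive cells. Cxcl3, a neutrophil-attracting chemokine, had 207 FPKM in KO naive and 2403 in KO tolerized cells, and 7.82 and 6664 FPKM in WT. Il1b had 175 and 6326 FPKM in KO and 10.2 and 10682 FPKM in WT cells. Ly6i went from 261 to 146 FPKM in KO and from 2.92 to 62.1 FPKM in WT cells, and the gelatinase Mmp9 from 65.0 to 58.4 FPKM and from 6.03 to 116 FPKM. Cystatin-like 2010005H15Rik and Gm5483, whose reads may be shared among copies, had 9.46 and 2.02 FPKM in KO naive, 98.6 and 8.84 in KO tolerized, and 354 and 92.4 in WT tolerized cells.

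Of the 81, 76 were lower in KO naive than in WT naive cells (median -1.56), and the tolerized libraries differed by a median of 0.97. For Ccl12, Gm14446, Fcgr4 and Selp, with KO differences of 5.59, 5.33, 4.62 and 3.16 and WT differences of 1.76, 1.10, 0.94 and -0.88, the KO tolerized library was the highest of the 6. For Rgs2, a regulator of G protein signalling, Dhrs3, a retinaldehyde reductase, and Cd5l, a macrophage survival factor, the KO naive level was below WT naive: 16.7 and 132 FPKM, 55.2 and 294.6 FPKM, and 9.26 and 69.6 FPKM. Their KO differences were -1.88, -1.16 and -0.39, beside -5.24, -4.53 and -4.19 in WT. Against the WT naive library, KO tolerized cells differed by -4.79, -3.56 and -3.18.

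**Figure D4:**
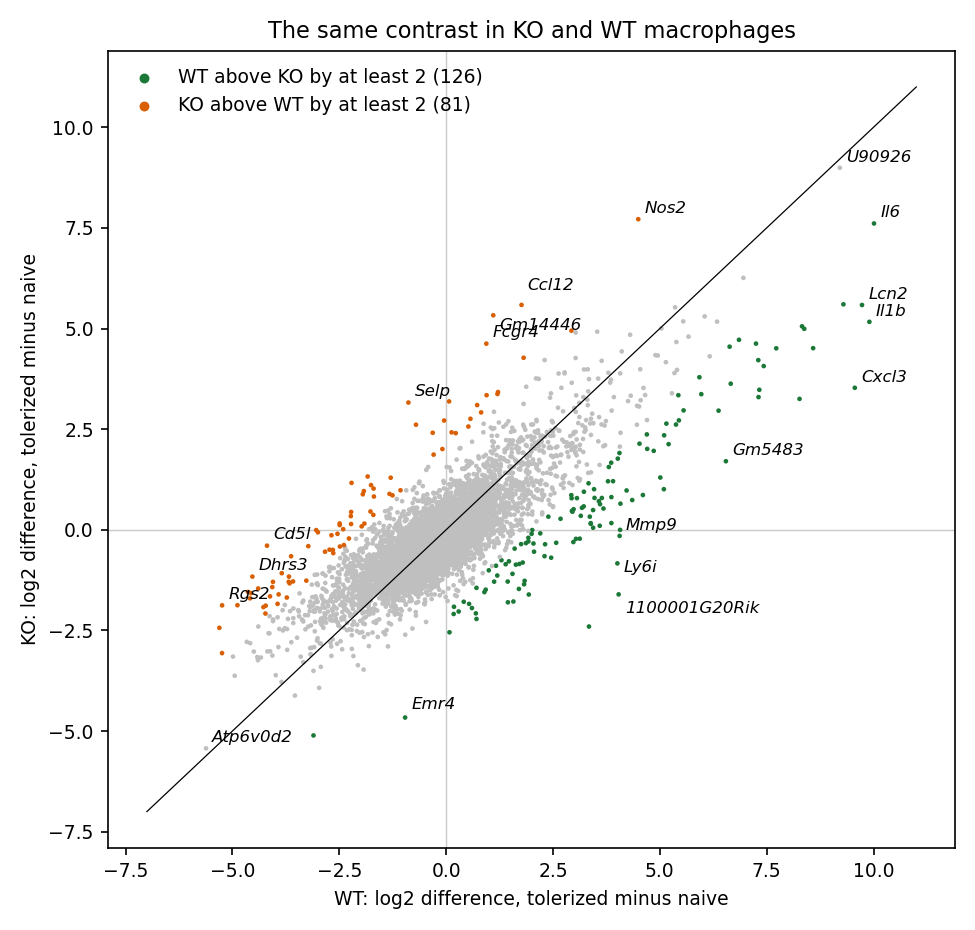
Each point is a gene compared in both genotypes, with the log2 difference of FPKM + 1 between tolerized and naive cells in WT on the x axis and in KO on the y axis, and the diagonal marking equal values; 1 library per group. Green points are the 126 genes whose WT value exceeds the KO value by at least 2, among them Cxcl3, Il1b and Lcn2, and orange points the 81 with the reverse, among them Ccl12, Fcgr4 and Selp.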

How the data were processed

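Poly-A mRNA of 6 libraries, 1 per group, was sequenced, and samples were grouped by their titles. For every gene the authors deposited an FPKM and its lower and upper bound, per the file headers. The submitters' processing notes name mm9 as the build and list Cufflinks, TopHat and bcl2fastq 1.8.4. Further versions, the annotation and any filter: not given in the sources used here. No read counts were used here, and the fragment numbers are estimates from interval widths taken as 2 standard errors of a count (of estimates under 200, 68.8% to 69.7% per library were whole numbers to within 0.01).

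Of 23699 rows, 306 had no estimate in a KO library, 712 rows of 248 symbols listed more than once were left out, and of 10248 with at least 2 FPKM in either library 22 small RNA genes were left out. Differences are of log2(FPKM + 1), with a pseudocount of 1, and understate those of low genes. Ranges of a difference set the bounds of 1 library against the opposite bounds of the other. A two-sided limma fit (3.58.1, R 4.3.3, trended eBayes) with genotype and condition as terms covered 6 libraries and the 10138 genes that reached 2 FPKM in 2 or more of them, with Benjamini-Hochberg adjustment and a threshold of 0.05; it was tested on simulated data. Rescaling used median ratios over 7687 genes. Python 3.11.15 was used for the rest.

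The members, the 42 gene lists and the alternatives were chosen with earlier results of these data known. Named were the 10 largest increases and decreases with at least 10 FPKM, 2 to 4 members with the largest difference of each list described, 8 genes of each sign with the largest difference between KO and WT, and 12 genes always, among them Tnf, Gata6 and Smarca4. Other names were chosen after their values were seen. Some genes that the rule names are not reported here. Promoters matched 33 of 49 cytokines and chemokines and 31 of 44 interferon-stimulated genes by symbol. Alternatives were other pseudocounts, filters, rescaling, each library left out and, chosen after seeing the data, the WT naive library as the reference and a pseudocount of 5 for lists.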

Additional observations from a re-analysis of the deposited data

Results flagged for a closer look

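For 2 named genes the KO and the WT library pair moved in opposite directions by at least 2-fold, a difference that was not tested. 1100001G20Rik (Wfdc21 in RefSeq) differed by -1.60 in KO cells, from 36.2 to 11.2 FPKM, and by 4.04 in WT cells, from a value listed at 0 to 15.4 FPKM. 1810011O10Rik (Tcim in RefSeq) differed by 1.17 in KO cells, from 3.27 to 8.57 FPKM, and by -2.21 in WT cells, from 18.8 to 3.27 FPKM.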

How the results depend on the processing

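A pseudocount of 5 gave 420 higher and 653 lower genes in KO cells and 952 lower in WT cells, since it shrinks the differences of low genes. In limma, testing without a filter on low values gave 497 genes that rose and 1330 that fell, a filter of 10 FPKM gave 1223 that fell from fewer genes tested, and leaving out a library gave 490 to 722 and 1007 to 1713; 490 is without WT naive, and the genes that fell numbered 1140 without WT naive, 1007 without WT tolerized and 1306 without KO tolerized. Lists with at least 50% of their measured members 2-fold lower numbered 2, but 0 with a pseudocount of 5, 1 after rescaling and 7 against the WT naive library. Against that library 3 named differences of at least 2-fold changed sign, 1100001G20Rik (3.61), Mdh2 (0.10) and 1810011O10Rik (-1.05); the cause was not tested. Of the smaller ones, Ly6i (5.23), Mmp9 (3.08), Nhp2 (0.08), Zbtb46 (0.55) and Ciita (-0.08) did. Of the other 51 counts each stayed within 1.5 times its value. Of the adjusted p-values of named genes under the alternatives, 2131 kept their side of the threshold, 139 lost significance and 40 gained it. No paired analysis was possible because each group has 1 library. Below 5 FPKM the intervals of 13.7% to 16.1% limit the smaller differences.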

Other observations

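Several gene groups of the KO pair were not described above. Their counts stand beside 6.34% of all genes higher and 13.2% lower than KO naive. Of 26 oxidative stress and metal genes 2 were higher and 5 lower, and 9 and 4 against the WT naive library. The glutathione peroxidase Gpx1 had 683 FPKM in KO naive, 122 in KO LPS and 115 in KO tolerized cells, and the selenium carrier Sepp1 had 100.2, 36.5 and 17.7 FPKM, beside 901 and 21.8 FPKM in WT naive and tolerized cells. Of 21 circadian clock and nuclear receptor genes 6 were lower and 2 higher (9 and 1 against the WT naive library), with Dbp at 6.998, 0.290 and 0.659 FPKM and Bhlhe41 at 63.5, 10.1 and 13.9 FPKM in the KO libraries. Both clock genes fell in the limma fit (adjusted p = 0.0118 at most with a library left out for Dbp and 0.00872 for Bhlhe41). Of 14 C-type lectin receptors 6 were lower and 1 higher, and of 16 against the WT naive library 7 and 3. The beta-glucan receptor Clec7a had 595 FPKM in KO naive, 291 in KO LPS and 101 in KO tolerized cells, and Clec4a1, the higher one, had 51.2, 50.4 and 235 FPKM.

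Of 25 chemoattractant and adhesion receptors 5 were higher and 5 lower (10 and 8 of 29 against the WT naive library), among the higher ones the fibronectin receptor subunit Itga5, with 41.9, 78.6 and 197 FPKM in KO naive, LPS and tolerized cells. Of 22 genes of the unfolded protein and integrated stress response 3 were higher and none lower, with 8 higher after rescaling and 7 against the WT naive library, and with Mthfd2 at 21.2, 33.7 and 43.6 FPKM. Of 19 cell cycle genes 3 were higher and none lower, and 7 were higher both after rescaling and, of 20, against the WT naive library. The cyclin gene Ccnd2 had 2.26, 112 and 40.1 FPKM, Top2a 1.78, 1.18 and 7.13 FPKM, and Rrm2 1.01, 0.765 and 5.01 FPKM. Of 25 ribosome assembly and RNA polymerase I genes 2 were higher, beside 6.34% of all genes, and 5 against the WT naive library. The 2 were Myc, with 3.60, 52.0 and 21.6 FPKM, and Nop58, with 24.1, 61.1 and 49.9 FPKM.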
